A study of Mus musculus with 20 samples.

Results

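Arterioles and glomeruli of the mouse renal cortex were compared directly, gene by gene, with 4 mRNA libraries a side. These 8 of the 20 libraries of the series were chosen by the compartment and treatment given in the header of the count table, namely arterioles and glomeruli of control animals. Both compartments came from healthy, untreated wild-type (WT) adult male mice of the strain C57BL6/OlaHsd, with no transgene or deletion. The header lists a time of 4 h for each of the 8 libraries, and what it stands for in control mice is not given in the sources read. Arterioles and glomeruli were recognised by shape on hematoxylin-stained cryosections of snap-frozen kidney and cut out by laser microdissection. RNA was then counted from the 3′ end of each transcript with a low-input 3′ mRNA library kit. A cut outline holds every cell inside it, so a difference between compartments can be fewer cells of a type or less RNA per cell, which cannot be told apart in these data. The arteriolar area cut was smaller than the glomerular area, and this cannot be told apart from compartment.

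Arterioles are the resistance vessels of the kidney. Their wall has an endothelial lining, an elastic lamina and layers of smooth muscle whose contraction sets the pressure and flow that reach the glomerulus, with connective tissue around it. The glomerulus is a tuft of fenestrated capillaries held by mesangial cells and wrapped by podocytes, whose foot processes and slit diaphragms form the last layer of the filter. Renin is made by juxtaglomerular cells, which lie in the wall of the afferent arteriole where it enters the glomerulus.

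Total counts were 6121550 to 11443164 in the arteriole libraries and 7299352 to 9792824 in the glomerular libraries. Levels are given as CPM, the count scaled to a fixed library total corrected by TMM (the trimmed mean of M-values), and values for single libraries are listed in the order 93, 96, 98 and 100, the numbers in the column names. A single count was worth 0.112 to 0.215 CPM in arterioles and 0.076 to 0.114 CPM in glomeruli. Arterioles and glomeruli of a mouse were cut from the same slide, but the sources read do not say whether a column number marks a mouse. The libraries were therefore compared without pairing, the p-values measure the spread between these libraries, and a result of the fit with the column number as a replicate block is given where it ends a call. At least 1 count was found for 11838 ± 516 genes in arterioles and 13495.5 ± 520 genes in glomeruli (SD, n = 4 each). The glomerular libraries were above the arteriole libraries without overlap (exact permutation test, two-sided, p = 0.0286, the smallest this design allows), also after thinning every library to 6121550 counts (11282 against 13180.5 genes).

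Of 9783 genes tested, 187 (1.91%) were higher in arterioles and 155 (1.58%) were higher in glomeruli, together 3.5%, by edgeR's quasi-likelihood test at a false discovery rate (FDR, Benjamini-Hochberg) under 0.05 and a change of more than 2-fold. The median difference over all genes tested was 0.35 on the log2 scale, arterioles minus glomeruli, the direction used for every difference below. It was 0.67 with DESeq2 size factors, -0.29 with library totals and -0.77 with the replicate block. The genes higher in glomeruli had larger fitted differences, with a median of 7.99 on the log2 scale against 3.24 for the genes higher in arterioles, and with larger standard errors (median 1.89 against 0.58). This went with counts near 0 on the other side. In 70 of the 155 glomerular genes the 4 arteriole libraries held 3 counts or fewer together, and in 20 of them none, whereas 2 of the 187 arteriolar genes were that low in glomeruli and none was at 0. A fitted difference against 0 counts is not a measured fold. Scaling moved the split. Arteriolar genes made up 54.7% of the calls with TMM, 61.7% with DESeq2 size factors (234 and 145) and 35.5% with library totals alone (106 and 193). Leaving out any 1 of the glomerular libraries 93, 96, 98 and 100 left 109, 122, 118 and 120 arteriolar genes and 39, 46, 40 and 40 glomerular genes. Leaving out arterioles 93, 96, 98 or 100 left 168, 146, 161 and 170 arteriolar genes and 97, 83, 81 and 88 glomerular genes. Further fits took in the other libraries, either the 16 that were microdissected or all 20. As a background for the counts of list members below, 1373 of the 9783 genes had an unadjusted p under 0.05 in edgeR's test. DESeq2's Wald test called 608 of 18786 genes higher in arterioles and 1336 higher in glomeruli.

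**Figure D1:**
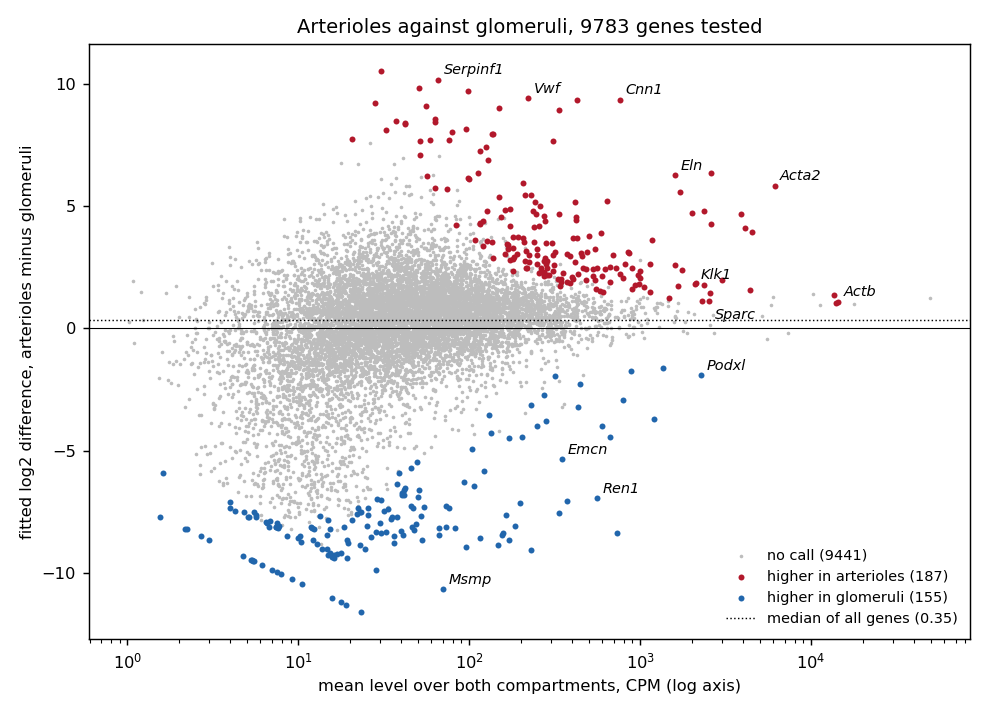
Fitted log2 difference (arterioles minus glomeruli, vertical axis) of 9783 genes tested against their mean level in CPM over the 8 libraries (log axis), with the genes that passed the test coloured by the compartment in which they were higher. The 155 genes higher in glomeruli reach further from 0 than the 187 genes higher in arterioles, with medians of 7.99 and 3.24 in absolute log2 units.

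Most genes of the contractile apparatus of smooth muscle were higher in arterioles. Of 22 genes of smooth muscle contraction, 21 were tested, 18 were higher in arterioles and 0 were higher in glomeruli, with a median log2 difference of 4.20 against 0.35 over all genes, and their summed share of counts was 4.27 ± 1.05% against 0.608 ± 0.0678% (SD, n = 4 each; exact permutation test, two-sided, p = 0.0286, 0.0464 adjusted over 13 marker lists). The marker lists were chosen with earlier results of these data known, so the p-values of their shares are not independent evidence. Every list whose shares did not overlap has these same 2 values, here and below. Acta2, smooth muscle actin (chr19:34241090-34255590 in GRCm38), stood at 12936, 18559, 8936 and 7722 CPM in arterioles and at 209.6, 189, 209 and 239 CPM in glomeruli. Every arteriole library exceeded every glomerular library by more than an order of magnitude, and the mean ratio was 56.9 (log2 difference 5.83 ± 0.32, FDR 7.77e-09; the error is the SE). The lowest arteriole libraries were 98 and 100. Myh11, the smooth muscle myosin heavy chain, stood at 6370.3, 5720.4, 4717 and 3613 CPM against 52.6, 86.7, 42.0 and 71.2 CPM, again without overlap (log2 difference 6.34 ± 0.36, FDR 1.01e-08).

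Cnn1, the actin-binding protein calponin, stood at 1538, 3171, 692 and 646 CPM in arterioles against 1.75, 3.13, 2.13 and 2.27 CPM. Its groups were far apart, although the arteriole libraries themselves ranged from 646 to 3171 CPM (log2 difference 9.34 ± 0.67, FDR 1.39e-07). Tpm2, a tropomyosin that lies along the actin filament, was higher at 3351 ± 2009.6 against 69.9 ± 25.0 CPM (SD, n = 4 each; log2 difference 5.58 ± 0.51, FDR 2.50e-06). The actin cross-linker Flna, which many other cells also make, was higher too, at 7755 ± 4013 against 456 ± 114 CPM (log2 difference 4.09 ± 0.37, FDR 2.50e-06). Des, the intermediate filament desmin, went the other way in its values. It stood at 60.0, 156, 158 and 70.8 CPM in arterioles and 239, 149, 190.0 and 147 CPM in glomeruli, with overlap between the groups, and it did not pass the test (log2 difference -0.70 ± 0.65, FDR 0.761, 95% interval -2.07 to 0.66). Desmin is also made by mesangial cells. Myocd, the coactivator of serum response factor that drives the smooth muscle programme, had 1287 counts in the arteriole libraries and 3 in the glomerular libraries, at 70.1, 13.2, 25.8 and 115 CPM against 0.103, 0.112, 0 and 0.114 CPM. The groups did not overlap and the gene passed the test (FDR 0.0207), but not when any 1 of the 4 glomerular libraries was left out (FDR up to 0.0937).

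Serum response factor binds a motif known as the CArG box, and RefSeq promoter windows of 300 bases, from 250 before to 50 after a gene's start (build GRCm38.p6), were searched for it, reading both strands. The box was found in 535 of 32851 windows of all genes (1.629%) and in 11 of 180 windows of genes higher in arterioles (6.111%), against 1 of 125 windows of genes higher in glomeruli (0.8%). These 11 windows belong to 9 genes, Asb2, Fbxl22, Fhl1, Filip1l, Ldb3, Myl6, Myl9, Nfix and Ptprr, and the glomerular window belongs to Myl7. Among the smooth muscle contraction genes 1 of 19 windows held the box, that of Myl9. No match says only that the motif is not in that window. The windows of 3 genes whose levels are given below are printed because they carry the box upstream of a gene higher in arterioles. The box is in capitals, and each window is written 5′ to 3′ on the strand of its gene. They are Myl9 (plus strand, chr2:156775214-156775513, box from 161 bases before the start), Fbxl22 (minus strand, chr9:66514544-66514843, 222 bases before) and Ldb3 (minus strand, chr14:34588558-34588857, 109 bases before).
Myl9: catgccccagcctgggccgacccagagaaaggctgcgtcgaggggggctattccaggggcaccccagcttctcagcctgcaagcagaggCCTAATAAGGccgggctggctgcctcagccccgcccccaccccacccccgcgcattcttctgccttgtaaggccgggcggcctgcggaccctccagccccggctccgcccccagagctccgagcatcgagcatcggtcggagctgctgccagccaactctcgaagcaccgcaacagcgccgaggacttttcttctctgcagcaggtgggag
Fbxl22: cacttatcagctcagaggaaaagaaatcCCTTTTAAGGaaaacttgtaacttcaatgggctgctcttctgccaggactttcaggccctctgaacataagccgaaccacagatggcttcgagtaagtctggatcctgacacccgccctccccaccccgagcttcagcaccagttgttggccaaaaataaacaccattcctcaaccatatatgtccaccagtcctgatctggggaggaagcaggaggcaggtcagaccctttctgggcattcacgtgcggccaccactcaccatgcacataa
Ldb3: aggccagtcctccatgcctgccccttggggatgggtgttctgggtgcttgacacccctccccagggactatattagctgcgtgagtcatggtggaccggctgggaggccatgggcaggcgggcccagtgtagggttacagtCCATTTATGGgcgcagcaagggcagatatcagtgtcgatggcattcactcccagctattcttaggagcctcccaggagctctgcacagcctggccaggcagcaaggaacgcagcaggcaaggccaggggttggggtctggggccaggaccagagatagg

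Myl9, the regulatory light chain whose phosphorylation starts contraction, stood at 12229.5, 9752, 6330.1 and 5387 CPM in arterioles and 973, 337, 444 and 453 CPM in glomeruli. Glomeruli 93 was above the other three, and the groups stayed well apart (log2 difference 3.93 ± 0.37, FDR 3.46e-06). Fbxl22, an F-box protein of the muscle Z-disc, stood at 207, 126, 26.0 and 44.7 CPM against 0, 0.112, 0.152 and 0.114 CPM, with 4 counts in all in glomeruli (log2 difference 9.83 ± 1.77, FDR 0.00333). Ldb3, another Z-disc protein, stood at 21.1, 20.5, 30.6 and 189 CPM against 0.206, 0.112, 0.228 and 0.341 CPM. Arteriole library 100 was far above the other three, and the call (FDR 0.0245) was lost without that library, without any 1 of the 4 glomerular libraries (FDR up to 0.0987) and with the replicate block.

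Channels and pumps that set the calcium and membrane potential of smooth muscle were higher in arterioles in 5 of 13 tested members, with 0 higher in glomeruli and a median log2 difference of 3.80. A further 8 members of the list of 21 were too low to test. DESeq2 called 9 members higher in arterioles and 2 higher in glomeruli, and the fit of 20 libraries called 7 and 1. Kcnab1, a β subunit of voltage-gated potassium channels, stood at 85.4, 272, 31.6 and 116 CPM in arterioles and 0.617, 0.112, 0.228 and 0.341 CPM in glomeruli. The groups were far apart despite an arteriolar range from 31.6 to 272 CPM (log2 difference 8.54 ± 1.48, FDR 0.00257). Kcnmb1, the β subunit of the large-conductance calcium-activated potassium channel, stood at 26.0, 166, 44.2 and 232 CPM against 1.34, 0.112, 0.608 and 0.114 CPM (log2 difference 7.70 ± 1.58, FDR 0.0096), and its call was lost without glomeruli 98 or 100 (FDR up to 0.0538). Jph2, which holds the sarcoplasmic reticulum close to the plasma membrane, was higher at 471 ± 142 against 13.0 ± 13.8 CPM (log2 difference 5.17 ± 0.92, FDR 0.00302). Pln, phospholamban, the inhibitor of the calcium pump of the sarcoplasmic reticulum, was higher at 311 ± 210.0 against 10.8 ± 7.05 CPM (log2 difference 4.84 ± 1.03, FDR 0.0124), with FDR 0.0577 when arterioles 98 was left out. The plasma membrane calcium pump Atp2b4 was higher at 382 ± 212 against 29.4 ± 17.3 CPM (log2 difference 3.70 ± 0.67, FDR 0.00375). Ano1, a calcium-activated chloride channel, went against the rest in its values. It stood at 0, 0.143, 0.672 and 0 CPM in arterioles and 31.6, 17.3, 20.4 and 38.3 CPM in glomeruli, without overlap, but did not pass the test (FDR 0.0795).

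**Figure D2:**
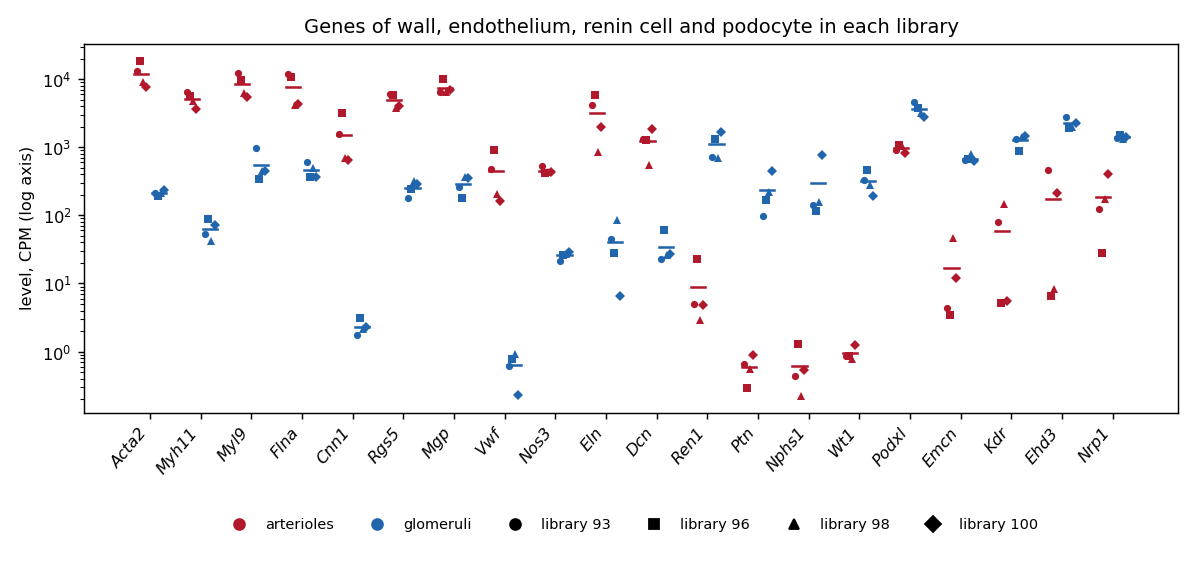
Level in CPM (log axis) of 20 genes in each of the 8 libraries, with arterioles and glomeruli in separate colours, a marker shape for each library number and a short line at the mean of each compartment. Smooth muscle, matrix and arterial genes such as Acta2 (mean 12039 ± 4885 against 212 ± 20.4 CPM) lie higher in arterioles, and podocyte, capillary and renin genes such as Wt1 (316 ± 110.3 CPM in glomeruli against 0.942 ± 0.216) lie higher in glomeruli, with arteriolar points of Ehd3, Kdr and Nrp1 spread widely.

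Arterial and glomerular endothelial genes that passed the test went with the vessel they mark. Of 24 pan-endothelial genes, 23 were tested and 3 were higher in arterioles, with a median log2 difference of 1.22. Their summed share of counts was 0.583 ± 0.0511% in arterioles and 0.342 ± 0.0113% in glomeruli, with every arteriole library above every glomerular library (exact permutation test, p = 0.0286, adjusted 0.0464). Nos3, the endothelial nitric oxide synthase, stood at 531, 412, 439 and 432 CPM in arterioles and 21.2, 26.4, 27.1 and 29.1 CPM in glomeruli. Both groups were tight, and their means differed by a ratio of 17.5 (log2 difference 4.13 ± 0.54, FDR 0.000185). Cd93, an endothelial surface lectin, was higher at 718 ± 137 against 109 ± 23.9 CPM (log2 difference 2.71 ± 0.43, FDR 0.00119). Pecam1, the platelet endothelial adhesion molecule, stood at 2746, 2272, 819 and 557 CPM against 436, 259, 384 and 336 CPM. Its groups did not overlap, but arterioles 98 and 100 lay close to the glomerular range, and the call (FDR 0.0128) was lost without arterioles 93, glomeruli 96 or glomeruli 100 (FDR up to 0.064) and with library totals. Cdh5, the vascular endothelial cadherin, overlapped between compartments at 134 ± 92.8 and 86.0 ± 34.0 CPM (log2 difference 0.64, 95% interval -1.04 to 2.32, FDR 0.848). The tight junction gene Cldn5 stood at 169.5, 341, 591 and 435 CPM against 109, 165, 76.8 and 89.7 CPM without overlap, but missed the threshold (FDR 0.0794). In 4 of the 23 tested genes the difference was below 0, and none of these passed. Robo4 stood at 9.61 ± 17.2 against 46.9 ± 25.2 CPM (log2 difference -2.28, FDR 0.66). Fli1 stood at 18.6 ± 15.9 against 53.9 ± 20.4 CPM (log2 difference -1.53, FDR 0.795). Eng stood at 140 ± 109 against 158 ± 21.6 CPM (log2 difference -0.18, FDR 0.957).

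Genes of arterial endothelium were higher in arterioles in 8 of 23 members, with 0 higher in glomeruli and a median log2 difference of 2.48. The summed share of this list was 1.25 ± 0.201% against 0.330 ± 0.0366% (exact permutation test, p = 0.0286, adjusted 0.0464). Without Mgp, its leading gene, the share was 0.666% against 0.293%. The list also holds the matrix genes Fbln5 and Ltbp4, so its sum is not of endothelium alone. The difference was above 0 for 22 of the 23 genes, and 12 of them reached an unadjusted p under 0.05 in edgeR's test. Sema3g went the other way in its values, with overlap, at 766 ± 239 CPM in arterioles and 958 ± 240 CPM in glomeruli. It did not pass (log2 difference -0.32, FDR 0.82). Vwf, von Willebrand factor, which tethers platelets (chr6:125546774-125686679), stood at 485, 923, 204 and 161 CPM in arterioles and 0.617, 0.783, 0.912 and 0.227 CPM in glomeruli. It was nearly absent from the glomerular libraries, with 27 counts in all (log2 difference 9.40 ± 0.92, and 8.78 without arterioles 96, FDR 4.90e-06). Cytl1, a small secreted protein, stood at 259.7, 434, 379 and 16.4 CPM against 1.34, 1.12, 0.760 and 1.14 CPM. Arterioles 100 was an order of magnitude below the other arteriole libraries and still above each glomerular library (log2 difference 7.95 ± 1.09, FDR 0.000271). Mgp, matrix Gla protein, the inhibitor of vessel calcification that is also made by smooth muscle, stood at 6557, 9974, 6533 and 6817 CPM against 262, 178, 369 and 349 CPM (log2 difference 4.69 ± 0.31, FDR 5.06e-08). Ltbp4, which binds latent TGF-β in the matrix, was higher at 2164 ± 653 against 175 ± 51.3 CPM (log2 difference 3.63 ± 0.38, FDR 1.03e-05). Gja4, the gap junction protein connexin 37, was higher at 788 ± 261 against 143 ± 17.9 CPM (log2 difference 2.47 ± 0.42, FDR 0.00224). It was the 1 gap junction gene of 4 tested that passed, and its call was lost in the fits of 16 and of 20 libraries. DESeq2 and the fit of 20 libraries each called 1 gap junction gene higher in glomeruli.

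Glomerular endothelium showed the opposite picture. Of 11 genes, 4 were higher in glomeruli and 0 in arterioles, with a median log2 difference of -1.67 against 0.35 over all genes. This median was -2.70 without arterioles 93, -3.29 without arterioles 98 and -4.77 with the replicate block. The count fell to 2 when arterioles 96 or 100 or any 1 of the 4 glomerular libraries was left out. Emcn, endomucin, a sialomucin of capillary and venous endothelium, stood at 4.30, 3.44, 46.6 and 11.9 CPM in arterioles and 642, 667, 792 and 619.6 CPM in glomeruli. The glomerular libraries were tight, and the highest arteriole library, 98, was an order of magnitude below them (log2 difference -5.35 ± 0.79, FDR 0.000577). Kdr, the main signalling receptor for VEGF (chr5:75932827-75978458), stood at 78.7, 5.17, 144 and 5.58 CPM against 1331, 887, 1422 and 1454 CPM. Arterioles 96 and 100 were far below arterioles 93 and 98, and all 4 were below the glomerular range (log2 difference -4.45 ± 0.85, FDR 0.00555). Ehd3, an endocytic protein that marks glomerular capillaries, stood at 467, 6.46, 8.18 and 209 CPM against 2814, 1933, 1964 and 2283 CPM. Arterioles 93 and 100 were well above arterioles 96 and 98 without reaching the glomerular range, and the call (FDR 0.0387) was lost without any 1 library other than arterioles 93 (FDR up to 0.101). The transcription factor Gata5 had 0 counts in the arteriole libraries and stood at 5.45, 2.35, 10.7 and 23.5 CPM in glomeruli, at least 91.4-fold higher (FDR 0.0402, with 3 counts over the 4 arteriole libraries as the floor). Its call was lost without any 1 of the 8 libraries (FDR up to 0.126), with no low-count filter, with edgeR's version 4 method and in the fit of 16 libraries.

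Plat, tissue plasminogen activator, stood at 2.37, 1.43, 36.0 and 0.360 CPM in arterioles and 157, 449, 146 and 63.5 CPM in glomeruli. The groups did not overlap, yet arterioles 98 was far above the other arteriole libraries and the gene did not pass (FDR 0.0712, and 0.00754 to 0.333 with 1 library left out). Sost, sclerostin, an inhibitor of Wnt signalling, overlapped between compartments at 24.2 ± 25.1 and 8.38 ± 10.9 CPM and did not pass (FDR 0.845). In the VEGF and angiopoietin system, 2 of 13 tested genes were higher in glomeruli and 0 in arterioles, with a median log2 difference of 0.66. They were Kdr and the VEGF co-receptor Nrp1, which stood at 124, 27.8, 176 and 404 CPM in arterioles and 1360.3, 1492, 1322 and 1431 CPM in glomeruli (log2 difference -2.94 ± 0.57, FDR 0.00642). The glomerular values of Nrp1 were tight and the arteriolar values were spread over an order of magnitude. The ligand Vegfa, made by podocytes, did not overlap at 45.6 ± 58.1 and 234 ± 75.7 CPM but did not pass (FDR 0.263). In the VEGF and angiopoietin list DESeq2 called 3 genes higher in glomeruli and 1 higher in arterioles.

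Many podocyte genes were higher in glomeruli, and the list gave more glomerular calls than any other list. Of 36 genes, all tested, 20 were higher in glomeruli and 0 in arterioles, with a median log2 difference of -4.55. Their summed share was 1.94 ± 0.129% of counts in glomeruli and 0.341 ± 0.0388% in arterioles (exact permutation test, p = 0.0286, adjusted 0.0464). Nphs1, nephrin, the adhesion protein that spans the slit diaphragm, stood at 139.6, 115, 159 and 761 CPM in glomeruli and 0.430, 1.29, 0.224 and 0.540 CPM in arterioles. Glomeruli 100 was several times the other three, and all 4 were far above the arteriole libraries (log2 difference -8.85 ± 1.10, FDR 9.24e-05). Wt1, the podocyte transcription factor, stood at 332, 458, 279 and 195 CPM against 0.861, 0.861, 0.784 and 1.26 CPM (log2 difference -8.37 ± 0.84, FDR 6.58e-06).

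Further podocyte genes were likewise abundant in glomeruli and near 1 CPM in arterioles. Clic3, a chloride intracellular channel protein, averaged 457 ± 174 CPM in glomeruli and 0.824 ± 0.366 CPM in arterioles (log2 difference -9.08 ± 0.78, FDR 1.31e-06). The slit scaffold Magi2 averaged 367 ± 77.1 and 1.37 ± 0.385 CPM (log2 difference -8.07 ± 0.75, FDR 3.46e-06). Ddn, dendrin, averaged 311 ± 42.4 and 0.884 ± 0.316 CPM (log2 difference -8.44 ± 0.85, FDR 6.58e-06). Rhpn1, a cytoplasmic protein of podocytes, averaged 340.3 ± 105 and 0.826 ± 0.121 CPM (log2 difference -8.65 ± 0.81, FDR 3.46e-06). Other members were made in both compartments. Podxl, podocalyxin, which endothelium also makes, stood at 4679, 3783, 3181 and 2752 CPM in glomeruli and 911, 1061, 1028 and 825 CPM in arterioles, a mean ratio of 3.76 (log2 difference -1.91 ± 0.27, FDR 0.000394), a call that DESeq2 did not make. Synpo, the actin-associated protein synaptopodin, stood at 1295, 1195, 1252 and 1668 CPM against 187, 497, 484 and 462 CPM. These groups did not overlap, but the call (FDR 0.0142) was lost without glomeruli 93, 98 or 100 (FDR up to 0.0626), with DESeq2 size factors, by DESeq2 and in the fit of 16 libraries. The actin cross-linker Actn4 overlapped at 692 ± 194 and 1009 ± 150.5 CPM and did not pass (95% interval of the log2 difference -0.18 to 1.27, FDR 0.561). In all, 24 of the 36 podocyte genes averaged at least 1 CPM in arterioles and 9 averaged at least 100 CPM there.

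Genes of mesangial cells and pericytes did not move as one. Of 18 genes, 17 were tested, 2 were higher in arterioles and 1 was higher in glomeruli, with a median log2 difference of 0.78. The arteriolar count ran from 1 in the fit of 16 libraries to 5 by DESeq2 and by edgeR's version 4 method. The median was 0.30 without arterioles 96, 0.49 without arterioles 100, 0.27 with the replicate block and 0.09 with library totals. Rgs5, a regulator of G protein signalling that marks pericytes and smooth muscle, stood at 6082, 5821, 3801 and 3992 CPM in arterioles and 177, 243, 314 and 285 CPM in glomeruli, without overlap (log2 difference 4.27 ± 0.31, FDR 1.62e-07). This 1 gene carried the sum of the list, which was 0.618% against 0.258% of counts with Rgs5 and 0.232% against 0.226% without it. Notch3, the Notch receptor of mural cells, was higher at 549 ± 204 against 68.9 ± 31.5 CPM (log2 difference 2.99 ± 0.55, FDR 0.00418), a call lost in the fit of 16 libraries. Ptn, the growth factor pleiotrophin, went the other way, at 0.645, 0.287, 0.560 and 0.900 CPM in arterioles and 97.6, 165, 219.5 and 445 CPM in glomeruli (log2 difference -8.58 ± 1.06, FDR 9.24e-05). Pdgfrb, the PDGF receptor of mesangial cells and pericytes, overlapped at 99.1 ± 59.4 and 195 ± 64.6 CPM and did not pass (FDR 0.615).

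Renin lay with the glomeruli. Ren1 (chr1:133350510-133360325) stood at 712, 1337, 703 and 1682 CPM in glomeruli and 4.95, 23.1, 2.91 and 4.86 CPM in arterioles. Every glomerular library exceeded every arteriole library, of which 96 was the highest (log2 difference -6.95 ± 0.73, and -8.01 without arterioles 96, FDR 1.26e-05). It was the 1 gene of the renin-angiotensin list to pass, of 8 tested among 11 in the table, with a median log2 difference of -1.06. In glomeruli 2 passed without arterioles 98, by DESeq2 and in the fit of 20 libraries, and DESeq2 and edgeR's version 4 method each called 1 higher in arterioles. The median was -0.68, -2.14, -0.73 and -1.87 without arterioles 93, 96, 98 and 100, -3.86 with the replicate block, -0.61 by DESeq2 and -1.73 with library totals. Akr1b7, an aldo-keto reductase that renin cells make, had 800 counts in glomeruli (8.43, 34.1, 19.5 and 17.7 CPM) and 2 counts in arterioles, both in library 93, and did not pass (FDR 0.0708). By quantitative RT-PCR the paper found this gene no different in arterioles and glomeruli, and did not keep it as a glomerular marker. Ace, the angiotensin-converting enzyme of endothelium, stood at 0.645, 159, 156 and 145 CPM in arterioles and 1.54, 0.560, 17.6 and 7.61 CPM in glomeruli. Arterioles 93 was below the glomerular values 1.54, 17.6 and 7.61 CPM, so the groups overlapped, and Ace did not pass (FDR 0.177). Enpep, the aminopeptidase that degrades angiotensin II, stood at 0.861, 2.01, 70.9 and 0.720 CPM against 77.4, 154, 113 and 74.0 CPM without overlap and did not pass (FDR 0.502, and 0.0318 to 0.76 with 1 library left out). Without Ren1 the summed share of the list was 0.0344% in arterioles and 0.0478% in glomeruli.

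The extracellular matrix of the arteriolar wall was a further group. Of 19 fibroblast and adventitia genes, 16 were tested, 9 were higher in arterioles and 0 in glomeruli, with a median log2 difference of 3.59, and their share was 0.615 ± 0.0642% against 0.179 ± 0.0144% of counts (exact permutation test, p = 0.0286, adjusted 0.0464). Dcn, the collagen-binding proteoglycan decorin, stood at 1329.7, 1291, 551 and 1823 CPM in arterioles and 22.8, 60.7, 26.0 and 27.4 CPM in glomeruli, without overlap (log2 difference 5.19 ± 0.53, FDR 7.91e-06). Col3a1, a chain of fibrillar collagen, stood at 542, 562, 446 and 564 CPM against 27.9, 23.5, 39.1 and 10.9 CPM (log2 difference 4.38 ± 0.57, FDR 0.00018). Its arteriole libraries were tight. Col1a1, another fibrillar collagen, was higher at 931 ± 438 against 68.9 ± 37.0 CPM (log2 difference 3.76 ± 0.54, FDR 0.000421), and so was Bgn, biglycan, at 2959 ± 1614 against 568 ± 81.8 CPM (log2 difference 2.38 ± 0.39, FDR 0.00156). Serpinf1, pigment epithelium-derived factor, had 3558 counts in arterioles and 4 in glomeruli (log2 difference 10.16 ± 1.52, FDR 0.000612). In 2 of the 16 tested genes the values went the other way, with overlap between the groups, and neither passed. Pdgfra stood at 31.2 ± 47.6 CPM in arterioles and 56.5 ± 26.5 CPM in glomeruli (log2 difference -0.86, FDR 0.9). Pi16 stood at 106 ± 103 and 133 ± 75.4 CPM (log2 difference -0.32, FDR 0.941).

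Elastic fibre genes were higher in arterioles in 6 of 16 tested members, with 0 higher in glomeruli, a median log2 difference of 2.98 and 4 members too low to test. DESeq2 called 10 members higher in arterioles and 1 higher in glomeruli. Eln, tropoelastin (chr5:134702593-134747323), stood at 4091, 5774, 836 and 1965 CPM in arterioles and 45.3, 27.5, 84.5 and 6.48 CPM in glomeruli. Each compartment was spread widely, and the lowest arteriole library was still several times the highest glomerular library (log2 difference 6.27 ± 0.75, FDR 5.56e-05). Fbln5, a fibulin needed for elastic fibre assembly, was higher at 874 ± 561 against 99.7 ± 24.4 CPM (log2 difference 3.13 ± 0.49, FDR 0.000912). Mfap5, a microfibril protein, had 2937 against 8 counts (log2 difference 9.08 ± 1.62, FDR 0.00308). Of 18 basement membrane genes tested, 2 were higher in arterioles and 0 in glomeruli, with a median log2 difference of 0.77 and 5 members too low to test. The median ran from 0.28 without arterioles 96 to 1.31 without arterioles 98, and was 0.07 with library totals and -0.24 with the replicate block. Hspg2, perlecan, was higher at 873 ± 318 against 221 ± 49.5 CPM (log2 difference 1.98 ± 0.41, FDR 0.00969), and Lamb2, the laminin β2 chain, at 1359.6 ± 431 against 443 ± 67.0 CPM (log2 difference 1.62 ± 0.35, FDR 0.014). No basement membrane gene was higher in arterioles without glomeruli 93 or 96, and none with library totals or in the fit of 16 libraries, while 1 was without glomeruli 98 and 4 by DESeq2. In glomeruli 1 was higher without arterioles 100, with library totals, by DESeq2 and in the fit of 20 libraries. With 1 library left out the FDR reached 0.0615 for Hspg2 and 0.0773 for Lamb2. Col4a4, a chain of the collagen IV network of the glomerular filter, stood at 319.7, 414, 409.6 and 465 CPM in glomeruli and 191, 144, 18.7 and 149.8 CPM in arterioles without overlap, but did not pass (FDR 0.16). Of 12 integrin subunits tested, 0 passed edgeR's test in the fit used here, and 1 was called higher in glomeruli without arterioles 96. An unadjusted p under 0.05 was reached by 6 of the 12, against 1373 of 9783 genes over all. Other edgeR fits called integrin subunits higher in arterioles, 2 with the version 4 method, 2 with a low-count filter independent of group and 1 with no filter, and the fit of 20 libraries called 1 in each direction. DESeq2 called 3 higher in arterioles and 1 higher in glomeruli.

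**Figure D3:**
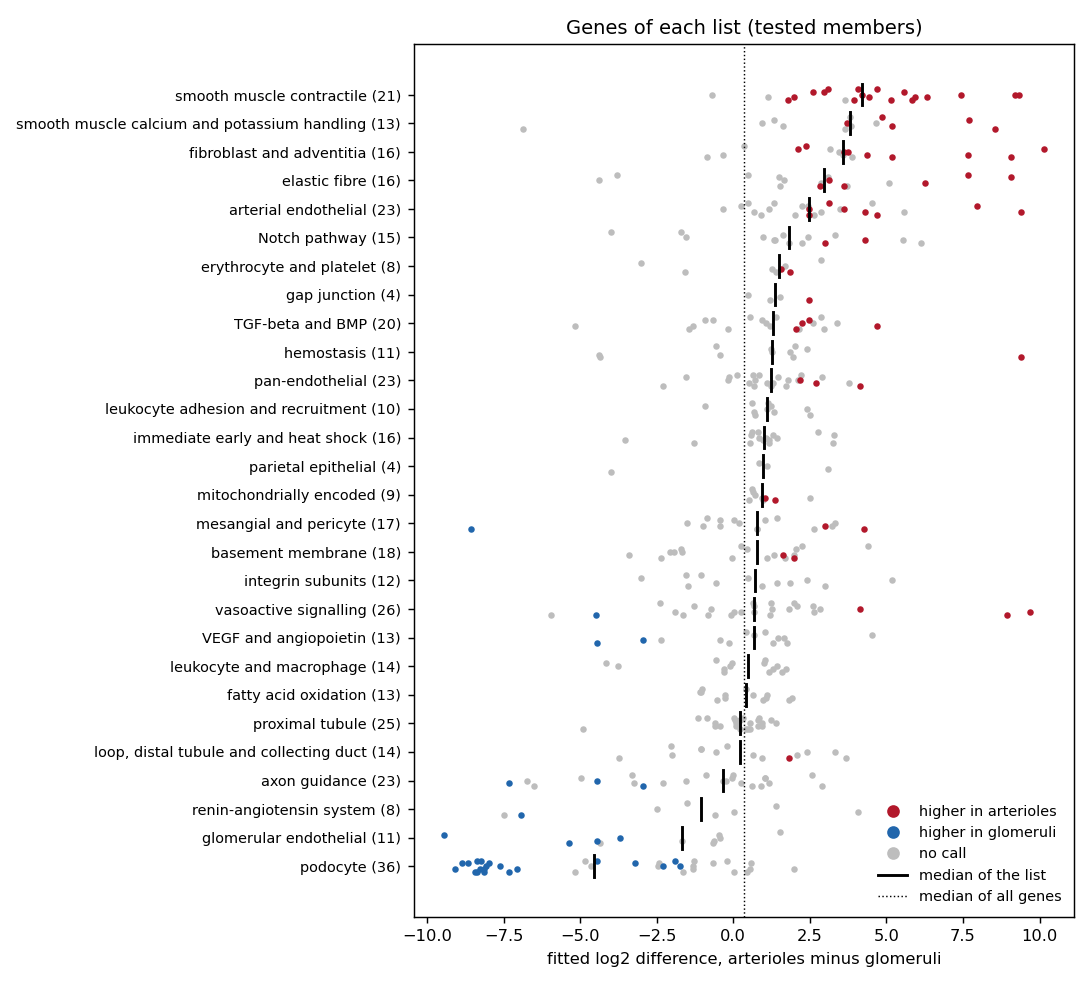
Fitted log2 difference (arterioles minus glomeruli) of each tested member of each gene list, coloured by the result of the test, with a bar at the median of the list and a dotted line at the median of all genes (0.35). The smooth muscle contraction list lies furthest to the arteriolar side (median 4.20) and the podocyte list furthest to the glomerular side (median -4.55).

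Genes that act on vessel tone were counted over prostanoid, nitric oxide, natriuretic peptide, endothelin and adrenergic signalling. Of 26 tested, 3 were higher in arterioles and 1 was higher in glomeruli, with a median log2 difference of 0.68. Nos3 was 1 of them. Ptgis, prostacyclin synthase, stood at 758, 1106, 476 and 336 CPM in arterioles and 1.54, 2.35, 1.06 and 0.455 CPM in glomeruli, and the lowest arteriole library was far above the highest glomerular library (log2 difference 8.94 ± 0.76, FDR 1.31e-06). Ramp1, the partner of the receptor for calcitonin gene-related peptide, stood at 265, 304, 47.5 and 164 CPM against 0.308, 0.112, 0.228 and 0.227 CPM (log2 difference 9.70 ± 1.22, FDR 0.00011). Npr3, the clearance receptor for natriuretic peptides, stood at 161, 304, 198 and 642 CPM in glomeruli and 0.430, 0.574, 43.9 and 13.5 CPM in arterioles. The groups did not overlap, but its call (FDR 0.0438) was lost without any 1 library other than arterioles 98 (FDR up to 0.152) and in the fit of 16 libraries. Adm, the vasodilator peptide adrenomedullin, stood at 43.3 ± 15.1 CPM in glomeruli and 0.685 ± 0.396 CPM in arterioles and did not pass (FDR 0.0769).

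In the Notch pathway 2 of 15 tested genes were higher in arterioles and 0 in glomeruli, with a median log2 difference of 1.82. DESeq2 called 6 higher in arterioles and 1 in glomeruli, edgeR's version 4 method called 6 and 0, and a low-count filter independent of group gave 4 and 0. The arteriolar count was 1 in the fit of 16 libraries and without arterioles 100 or glomeruli 93, 96 or 98. Besides the receptor Notch3, this was the ligand Jag1, at 149, 74.5, 216 and 436 CPM in arterioles and 11.1, 2.91, 9.88 and 20.2 CPM in glomeruli (log2 difference 4.31 ± 0.93, FDR 0.0144). All 4 arteriole libraries were higher, and the call of Jag1 was lost without arterioles 100 or glomeruli 93, 96 or 98 (FDR up to 0.0853). The target gene Hey2 stood at 27.3, 118, 107 and 40.9 CPM against 0.206, 0.224, 3.65 and 0 CPM without overlap but did not pass (FDR 0.0826). In the TGF-β and BMP list 4 of 20 tested genes were higher in arterioles and 0 in glomeruli, with a median log2 difference of 1.29. The count was 2 without glomeruli 100 and 2 with library totals, and DESeq2 called 6 higher in arterioles and 1 in glomeruli. Tgfb3, a TGF-β ligand, was higher at 475 ± 230.2 against 18.6 ± 17.0 CPM (log2 difference 4.68 ± 0.94, FDR 0.0082). The other 3 were Id genes, which BMP signalling induces. Id1 was higher at 363 ± 155 against 66.0 ± 7.80 CPM (log2 difference 2.46 ± 0.57, FDR 0.0218), a call lost without arterioles 100 or any 1 of the 4 glomerular libraries (FDR up to 0.0924), with library totals, in the fit of 16 libraries and with the replicate block. Id2 was higher at 1609 ± 578 against 391 ± 91.5 CPM (log2 difference 2.04 ± 0.36, FDR 0.00293). Id3 was higher at 1255 ± 639 against 267 ± 94.0 CPM (log2 difference 2.23 ± 0.46, FDR 0.00896), a call lost without glomeruli 100 (FDR 0.0509) and with library totals.

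Axon guidance genes, several of which podocytes use, were higher in glomeruli in 3 of 23 tested members and in arterioles in 0, with a median log2 difference of -0.32. The count was 1 without glomeruli 93, 98 or 100, 2 without arterioles 100 or glomeruli 96, 8 by DESeq2 and 5 in the fit of 20 libraries. The median was -0.66, -0.64 and -0.92 without arterioles 93, 96 and 100, -0.51 without glomeruli 93 and -2.86 with the replicate block. It was -0.97 with library totals and 0.20 by DESeq2. Besides Nrp1 they were Robo2 and Efnb1. Robo2, the receptor for Slit ligands, stood at 86.5, 39.3, 64.3 and 181 CPM in glomeruli and 0.430, 0.287, 0.448 and 1.08 CPM in arterioles (log2 difference -7.34 ± 1.56, FDR 0.0125). The groups were far apart, but the call was lost without glomeruli 93, 98 or 100 (FDR up to 0.0946). Efnb1, the membrane ligand ephrin B1, stood at 357, 277, 344 and 587 CPM against 2.15, 1.29, 62.3 and 5.94 CPM, with arterioles 98 far above the other three, and its call (FDR 0.0239) was lost without arterioles 93 or 100 or any 1 of the glomerular libraries (FDR up to 0.0893). In hemostasis 1 of 11 tested genes, Vwf, was higher in arterioles and 0 in glomeruli, with a median log2 difference of 1.27. In glomeruli 1 was higher without arterioles 96 or 98, by DESeq2, with edgeR's version 4 method and with the replicate block. The same glomerular count came with no low-count filter, with a filter independent of group and in the fit of 20 libraries. No call by edgeR in the fit used here was made among 10 leukocyte adhesion genes (2 at an unadjusted p under 0.05, and 2 called by DESeq2), 16 immediate early and heat shock genes (2 and 0, with 1 higher in glomeruli without arterioles 100) and 13 fatty acid oxidation genes (2 and 1). In other edgeR fits 1 leukocyte adhesion gene was higher in arterioles with a low-count filter independent of group, and the fit of 20 libraries called 1 leukocyte adhesion gene and 2 fatty acid oxidation genes higher in arterioles. The median log2 differences of these 3 lists were 1.12, 1.02 and 0.41. Over all genes tested, 1373 of 9783 were at an unadjusted p under 0.05 in edgeR's test.

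Marker genes of cells that neither outline is meant to hold were present on both sides. The proximal tubule list made up 1.20% of counts in arterioles and 1.27% in glomeruli (exact permutation test, two-sided, p = 0.83). In the fit used here edgeR called 0 of its 25 tested genes, with 3 at an unadjusted p under 0.05, against 1373 of 9783 genes over all. Elsewhere 1 gene was called higher in glomeruli by DESeq2, by edgeR's version 4 method, with library totals and in the fit of 16 libraries, 1 was called higher in arterioles with DESeq2 size factors, and the fit of 20 libraries called 1 in each direction. Kap, the androgen-regulated kidney protein of the proximal tubule, was among the most abundant, at 5824, 5705, 6334 and 12861 CPM in arterioles and 4643, 2884, 4078 and 4439.9 CPM in glomeruli (FDR 0.0689). The list of loop, distal tubule and collecting duct made up 0.434% and 0.381% (exact p = 0.857), and 1 of its 14 tested genes passed. That was Klk1, a kallikrein of the connecting tubule, at 3031, 3365, 1822 and 4869.9 CPM against 1044, 937, 855 and 909 CPM, without overlap (log2 difference 1.81 ± 0.31, FDR 0.00224). Without arterioles 93 or 98, 2 genes of this list were higher in arterioles. The count was 3 with DESeq2 size factors, with no low-count filter and with a filter independent of group. It was 4 by DESeq2, with edgeR's version 4 method and in the fits of 16 and of 20 libraries. In glomeruli 1 was higher with library totals and in the fit of 20 libraries. Umod, uromodulin of the thick ascending limb, stood at 262 ± 77.1 and 545 ± 145 CPM and did not pass (FDR 0.237). Without Kap the proximal tubule list made up 0.564% of counts in arterioles and 0.764% in glomeruli, and without Klk1 the other list made up 0.175% and 0.263%, so that the order of the latter turned. These differences were not tested, nor was the part of tubular RNA in the results above.

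Blood markers varied more among arterioles than among glomeruli. The erythrocyte and platelet list took 1.06 to 4.17% of counts in arterioles and 1.38 to 1.75% in glomeruli (exact permutation test, p = 0.229). Hbb-bt, a β-globin, stood at 2673, 6422, 877 and 3253 CPM in arterioles and 1024, 1022, 729 and 889.8 CPM in glomeruli, and Hba-a2, an α-globin, at 5899.6, 13645, 1954 and 4595 CPM against 2174, 1766, 2077 and 2824 CPM. Arterioles 98 lay inside the glomerular range for both, and the other arteriole libraries lay above it. These were the 2 of 8 tested members of the list to be called (FDR 0.0223 and 0.0441). Neither call held without arterioles 96 or 100 or any 1 glomerular library, and that of Hba-a2 was also lost without arterioles 93, whereas 4 members were called without arterioles 98. Neither passed with library totals, and DESeq2 did not call Hba-a2. Near-identical globin copies can share reads, so the single genes are uncertain. Leukocyte and macrophage genes took 0.123% and 0.111% of counts (exact p = 0.457), with 0 of 14 called by edgeR in the fit used here, 3 at an unadjusted p under 0.05, 1 called in arterioles and 2 in glomeruli by DESeq2, and 1 in arterioles in the fit of 20 libraries. The antigen-presenting gene H2-Aa stood at 395 ± 76.4 and 161 ± 29.7 CPM without overlap (FDR 0.158). Of 4 parietal epithelial genes tested, 0 passed edgeR's test, with 1 at an unadjusted p under 0.05 and 2 called in glomeruli by DESeq2, and the list took 0.0128% and 0.00899% of counts (exact p = 0.686). For both lists the background at such an unadjusted p was 1373 of 9783 genes.

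**Figure D4:**
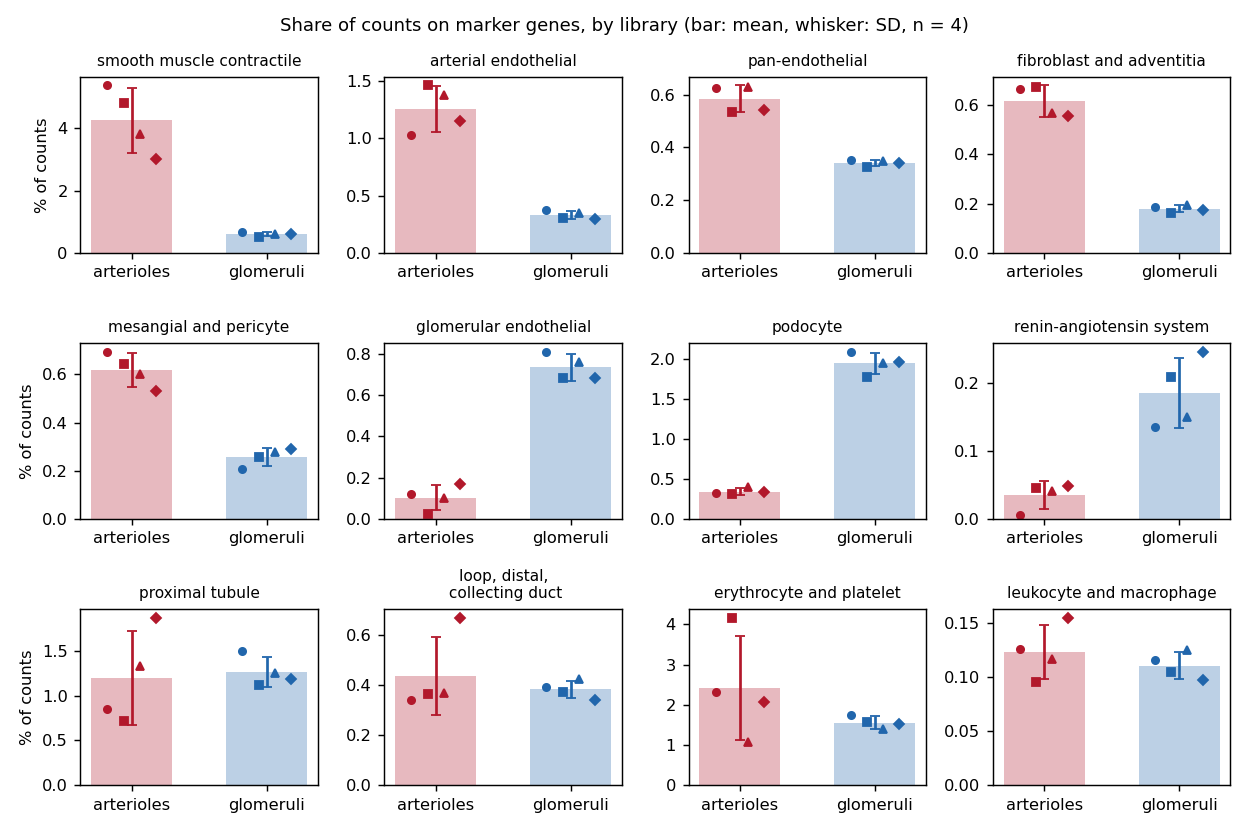
Summed share of counts, in percent, of the genes of 12 marker lists in each library (points), with the mean of 4 libraries as a bar from 0 and the SD as a whisker. The smooth muscle share averaged 4.27% in arterioles and 0.608% in glomeruli and the podocyte share 0.341% and 1.94%, while the proximal tubule share was 1.20% and 1.27%.

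Among the most abundant genes, some mitochondrial transcripts and actin were higher in arterioles. Of 9 mitochondrially encoded genes tested, 2 passed, with a median log2 difference of 0.94. mt-Cytb, cytochrome b, stood at 12134, 27119.5, 17406 and 21614 CPM in arterioles and 6708, 10319, 7623 and 5726 CPM in glomeruli (log2 difference 1.37 ± 0.24, FDR 0.00293). mt-Rnr2, the large mitochondrial ribosomal RNA, averaged 18817 ± 4671 and 9123 ± 1798 CPM (log2 difference 1.04 ± 0.20, FDR 0.00672). The count was 1 without arterioles 96 or glomeruli 93, 4 without arterioles 93 or glomeruli 96, and 0 with library totals or DESeq2. The summed mitochondrial share of raw counts was 7.04 ± 1.20% against 5.58 ± 0.646% (exact permutation test, p = 0.0857). Actb, cytoplasmic β-actin, averaged 19532 ± 6889 and 9177 ± 1122 CPM (log2 difference 1.09 ± 0.22, FDR 0.00859), and its call was lost by DESeq2, with library totals and without arterioles 96, where the difference was under 2-fold in the last 2 settings. Neat1, a long nuclear RNA, was higher in glomeruli, at 1892, 2105, 2003 and 2188 CPM against 784, 463, 819 and 616 CPM (log2 difference -1.61 ± 0.30, FDR 0.00494), a call that DESeq2 did not make.

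The 15 largest fitted differences in each direction, among called genes at 10 CPM or more in every library of the higher compartment, ran from 8.11 to 10.16 on the log2 scale for arterioles and from 8.81 to 11.60 for glomeruli. The upper glomerular end is Tspan15, which like Acpp had 0 counts in arterioles. Its fitted value is not a measured fold, and both genes are given as lower bounds below. Of the 15 glomerular genes 12 had 3 counts or fewer in arterioles, against 1 of the 15 arteriolar genes in glomeruli. Beside genes described above, the arteriolar set held Mall, a membrane raft protein, at 1339.6, 1465, 304 and 289 CPM against 1.23, 1.12, 1.14 and 1.70 CPM (log2 difference 9.34 ± 0.77, FDR 9.41e-07). Optc, the matrix proteoglycan opticin, stood at 378, 453, 188 and 175 CPM against 1.03, 0.783, 0.152 and 0.341 CPM (log2 difference 8.99 ± 0.99, FDR 2.14e-05). Pi15, a secreted peptidase inhibitor, stood at 57.0, 201, 126 and 377 CPM against 0.411, 0.448, 1.29 and 0.455 CPM (log2 difference 8.14 ± 1.18, FDR 0.000462). In all 3 the groups were more than an order of magnitude apart.

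The glomerular set was led by genes that arterioles lacked. Tspan15, a tetraspanin, had 0 counts in arterioles and 1928 in glomeruli, at 30.1, 41.4, 58.6 and 56.1 CPM, at least 405-fold higher, and its call (FDR 0.0207) was lost without any 1 glomerular library (FDR up to 0.0743) and with edgeR's version 4 method. Acpp, prostatic acid phosphatase, had 0 counts against 1435, at least 331-fold higher, and its call (FDR 0.0299) was lost without arterioles 98 or any 1 glomerular library (FDR up to 0.0847), with edgeR's version 4 method and in the fit of 16 libraries. Msmp, a small secreted protein, had 2 counts in arterioles and 5683 in glomeruli, at 116, 190.0, 140.5 and 115 CPM, with FDR 0.000394. Pcdh12, a protocadherin of endothelium, stood at 88.5, 196, 97.2 and 377 CPM in glomeruli and 0.645, 0.287, 0.224 and 0.360 CPM in arterioles (log2 difference -8.95 ± 1.20, FDR 0.000215). Nxph3, a secreted neurexin ligand, had 1 count against 2329 (FDR 0.018, lost in the fit of 16 libraries and without glomeruli 93, 98 or 100 with FDR up to 0.0834). Gabrb1, a subunit of the GABA type A receptor, had 1 count against 1300 (FDR 0.0347, lost without any 1 of the 8 libraries with FDR up to 0.0914). Its call was also lost with the replicate block, with no low-count filter, with edgeR's version 4 method and in the fit of 16 libraries.

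The study also chose 25 genes for quantitative RT-PCR, partly on these libraries, so their direction is not independent evidence. Of these, 24 were tested, 5 were higher in arterioles and 6 in glomeruli. The glomerular count was 3 without arterioles 96, 98 or 100 or glomeruli 100, and 2 without glomeruli 93, 96 or 98. The genes used there as references had low and uneven counts in these libraries. Their levels by RT-PCR were not examined. Gapdh, a glycolytic enzyme, stood at 26.9, 513, 185 and 141 CPM in arterioles and 161, 128, 94.8 and 23.0 CPM in glomeruli, and Ppia, cyclophilin A, at 0.861, 96.3, 18.4 and 153 CPM and 12.4, 25.7, 31.3 and 21.0 CPM. Both overlapped between compartments and did not pass (FDR 0.672 and 0.746).

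Few genes could be shown to lie within 2-fold of each other. The 95% interval of the difference was inside -1 to 1 on the log2 scale for 27 genes (0.276%). Among the most abundant were Hsp90ab1, a heat shock chaperone, Sparc, a matrix protein, Igfbp7, an insulin-like growth factor binding protein, Laptm4a, a lysosomal membrane protein, and Zbtb20, a transcription factor. Sparc stood at 3294, 3284, 1651 and 2522 CPM in arterioles and 2447, 2285, 2384 and 2615 CPM in glomeruli (log2 difference 0.14, interval -0.42 to 0.71). The intervals of the others were -0.79 to 0.43 (Hsp90ab1), -0.95 to 0.55 (Igfbp7), -0.36 to 0.89 (Laptm4a) and -0.34 to 0.87 (Zbtb20). The sign of these 5 differences changed with the scaling. The count of such genes was 48 without arterioles 96, 15 without arterioles 98, 17 without arterioles 100, 14 without glomeruli 96 and 10 without glomeruli 98.

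Arteriole libraries differed from one another more than glomerular libraries did. Over 1297 genes at 100 CPM or more in both compartments, the median SD of log2(CPM + 1) among 4 libraries was 0.866 in arterioles and 0.444 in glomeruli. The SD exceeded 1 for 549 genes in arterioles and 61 in glomeruli, and 1063 of the 1297 genes were more spread in arterioles. The rank correlation of CPM between libraries averaged 0.49 within arterioles (0.471 to 0.514), 0.682 within glomeruli (0.629 to 0.739) and 0.479 between compartments (0.44 to 0.53), a description over genes of the same libraries. Of genes averaging 10 CPM or more, 971 of 7894 were at 0 in at least 1 arteriole library and 171 of 8374 in at least 1 glomerular library. Fam184a stood at 133, 492, 0.336 and 0 CPM in arterioles, and Gnb4, a G protein β subunit, at 191, 251, 0.224 and 0 CPM, both high in libraries 93 and 96 and near 0 in 98 and 100. Among glomeruli the widest genes included Cyp26b1, which degrades retinoic acid, at 282, 428, 7.83 and 72.0 CPM, and Igha, the constant region of immunoglobulin A, at 291, 381, 0.608 and 0.455 CPM. Groups did not overlap for 508 of the tested genes with arterioles above (5.19%) and for 819 with glomeruli above (8.37%). Of the genes that passed the test, 180 of 187 and 155 of 155 did not overlap. Arteriole depth and TMM factors also varied more (factors 0.609 to 1.013 against 1.168 to 1.344). With every library thinned to the smallest total and these factors kept, the spread was 0.866 against 0.448. What the spread owes to the smaller area cut was not tested.

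**Figure D5:**
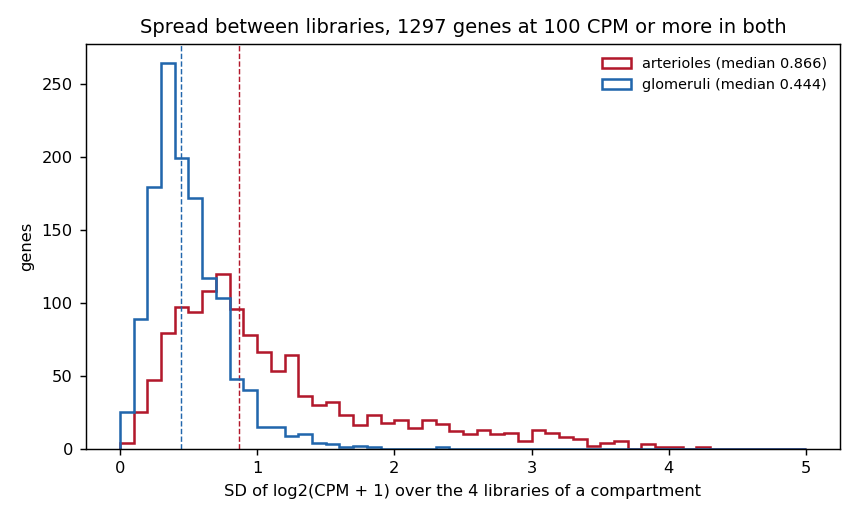
Number of genes (vertical axis) by the SD of log2(CPM + 1) over the 4 libraries of a compartment, for 1297 genes at 100 CPM or more in both compartments, with dashed lines at the medians. The arteriolar distribution lies to the right, with a median of 0.866 against 0.444.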

How the data were processed

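Arterioles and glomeruli of the renal cortex of control mice were measured by 3′ mRNA sequencing (QuantSeq FWD, low-input modification). The authors cleaned the reads (bbduk), mapped them by STAR to GRCm38.p6 and used htseq-count for the gene counts. Per the submitters' processing notes, FastQC 0.11.8, MultiQC 1.7, STAR 2.7, SAMtools 1.9, HTSeq 0.13, featureCounts and the builds GRCm38.p6 and GRCm39 were named. The authors deposited raw counts per gene, neither normalized nor filtered. The sources read do not state the strand setting or any molecular identifiers, so reads of overlapping genes cannot be told apart. Reads near the 3′ end do not scale with transcript length, so levels were compared between compartments within a gene. The table holds 34255 genes, of which 34185 (99.8%) matched GENCODE M21 by identifier, and 168 value columns. The 8 columns were assigned by the section, treatment and letter in the header. The labels number replicates otherwise and name no mouse, and 148 columns outside the series were not used.

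Genes were filtered with filterByExpr, scaled by TMM and fitted with edgeR 4.0.16 (R 4.3.3), using estimateDisp and the quasi-likelihood test in its earlier form (legacy) on the 8 libraries with compartment as the only term. A gene was called at a Benjamini-Hochberg adjusted p (FDR) under 0.05 and an absolute log2 difference above 1. SEs and 95% intervals come from the same fit. Genes at 0 in a whole compartment are given as a lower bound against 3 counts over the group. Shares of raw counts and numbers of genes detected were compared by exact permutation tests over the 8 libraries, whose smallest possible two-sided p is 0.0286. Scripts were tested on simulated counts. Members and gene lists were chosen with earlier results of these data known. Genes were named by rank within lists (up to 6 by p, 3 against the median), the 15 largest and 6 most abundant calls per direction, the study's RT-PCR genes, the 6 most abundant genes within 2-fold and the 4 most spread, and the text gives a selection of these, and some results are not reported here. Depth limits levels under about 1 count (0.076 to 0.215 CPM), and such limits cover counting error only. Alternatives were DESeq2 1.42.0 size factors and Wald test, library totals, no or another low-count filter, edgeR's version 4 method, fits of 16 or 20 libraries, a replicate block and leaving out each library.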

Additional observations from a re-analysis of the deposited data

Results flagged for a closer look

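In 30 of 238 groups of 4 libraries, 1 library stood apart from the rest by Dixon's ratio at its 95% critical value. Chance gives about 1 in 20 only for normally distributed values. The ratio was taken without logs, also on genes near 0 counts and on genes named for their wide spread. The 30 can therefore not be set against that rate. By library the 30 groups were 7 in arterioles 93, 7 in arterioles 96, 5 in arterioles 98, 4 in arterioles 100, 0 in glomeruli 93, 1 in glomeruli 96, 5 in glomeruli 98 and 1 in glomeruli 100.

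Arterioles 96 was high for the matrix genes Mgp (9974 CPM), Fbln5 (1713 CPM), Hspg2 (1348 CPM), Serpinf1 (317 CPM) and Mfap5 (182 CPM), for Ren1 (23.1 CPM), and for Gabrb1 with the 1 count that arterioles held (0.143 CPM). Arterioles 93 was high for Zbtb20 (2383 CPM), Pdgfrb (187 CPM), Akr1b7 (0.430 CPM) and Nxph3 (0.215 CPM), and low for Synpo (187 CPM), Ace (0.645 CPM) and Rhpn1 (0.645 CPM). Arterioles 98 was high for Igha (257 CPM), Cyp26b1 (78.4 CPM), Enpep (70.9 CPM), Efnb1 (62.3 CPM) and Plat (36.0 CPM), of which all but Igha were below the glomerular mean there. Arterioles 100 was high for Kap (12861 CPM), Ldb3 (189 CPM), Wt1 (1.26 CPM) and the summed share of loop, distal tubule and collecting duct genes (0.668% of counts). Among glomeruli, library 98 was high for total counts (9792824), Hey2 (3.65 CPM) and Pi15 (1.29 CPM) and low for Rhpn1 (183 CPM) and Myocd (0 CPM). Glomeruli 100 was high for Nphs1 (761 CPM), and glomeruli 96 was high for Dcn (60.7 CPM). What sets these libraries apart was not tested.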

How the results depend on the processing

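With 4 libraries a side, calls with few counts on one side were the least secure, and depth limits levels under about 1 count. The alternatives were run for 104 of the genes named with values, of which 75 were called. Of these, 53 passed under every alternative that gave a result, other than leaving out a library. With leaving out a library included, 46 passed. Nphs1, counted in both, had a result under 16 of 17 alternatives. Over 1765 comparisons, 1586 kept direction and side of the threshold, 139 lost the call, 28 gained it and 12 changed sign. The alternatives for genes detected and for spread, and the thinning, were chosen after seeing the data.

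Genes higher in arterioles numbered 106 with library totals, 362 with no low-count filter, 464 with a filter independent of group, 608 with the DESeq2 Wald test, 354 with edgeR's version 4 method and 345 in the fit of 20 libraries, against 187. Genes higher in glomeruli numbered 97 with no filter, 1336 with the Wald test and 467 with 20 libraries, against 155. Genes within 2-fold numbered 7 with size factors, 78 with library totals, 0 with the Wald test and 56 with 20 libraries, against 27. With 1 library left out these ranges were 109 to 170, 39 to 97 and 10 to 48. Without mitochondrial and hemoglobin counts the podocyte share differed by -1.71 and the fibroblast share by 0.487 percentage points. Genes with more than 10 counts differed by 3687 between compartments. The causes were not tested.

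Signs changed with library totals for Cdh5 (-0.031), Actn4 (-0.12), Sparc (-0.55), Laptm4a (-0.37) and Zbtb20 (-0.38 on the log2 scale). They changed for Hsp90ab1 (0.22) and Igfbp7 (0.21) with size factors, and with the Wald test to 0.31 and 0.31. With 1 library left out the log2 difference ranged from -0.38 to 0.048 for Hsp90ab1 and from -0.48 to 0.089 for Igfbp7. None of these 7 genes was called.

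Over all genes tested, the deviations of same-numbered libraries from their compartment means had correlations of -0.00857, 0.0376, 0.0258 and 0.02. Of the 4 arteriole libraries, 2 correlated best with their own number. With libraries as variable as these, such values cannot decide whether a number marks a mouse. With a replicate block 187 and 122 genes were called, of which 163 and 94 were called without it.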
